A study of Mus musculus with 6 samples.

Results

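The nuclear-encoded subunits of the respiratory chain were examined in mouse mammary tumors with and without RANK, the receptor activator of NF-κB encoded by Tnfrsf11a. Members were the genes on the array whose symbol marks them as a subunit of complex I (Ndufa, Ndufb, Ndufc, Ndufs and Ndufv genes), complex II (Sdha to Sdhd), complex III (Uqcr genes) or complex IV (Cox4 to Cox8 genes). There were 67 such genes among 21154 RefSeq genes with a probe, namely 37 of complex I, 4 of complex II, 8 of complex III and 18 of complex IV. Of these, 64 were bright enough to be tested, among 22503 genes or unnamed transcripts. Cox6a2, Cox7b2 and Cox8c did not pass, which left 15 genes of complex IV. A further 12 RefSeq genes that the pattern takes in, among them Ndufb1, Ndufs6b, Cox6c2 and several pseudogenes, had no matched probe, and whether their transcripts also bind the probes of members was not tested.

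RNA came from CD45- cells, sorted alive from MMTV-PyMT tumors that had been grown as orthotopic transplants in female C57BL/6 mice. MMTV-PyMT tumors are driven by the middle T oncogene of polyomavirus, which is expressed mainly in mammary epithelium from a viral promoter, and both genotypes carried it. The transplanted cells were RANK+/+ or RANK-/-, and RANK was lost in all cells of the donor, while the host mice kept their own RANK and their leukocytes. Each of 3 pairs set RNA of one RANK-/- sample against one RANK+/+ sample on 2 arrays, named A and B, which are technical repeats, so n = 3 pairs. The labels do not say how many donor tumors gave the transplants or whether samples were pooled. In pair 1 the RANK-/- RNA carried Cy5, and in pairs 2 and 3 it carried Cy3. All ratios below are log2 RANK-/- over RANK+/+, as labeled, with A and B averaged.

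The respiratory chain sits in the inner mitochondrial membrane, passes electrons from NADH and succinate to oxygen, and pumps protons that drive ATP synthesis. Complex I takes electrons from NADH, complex II from succinate, complex III hands them to cytochrome c, and complex IV gives them to oxygen. Mitochondrial DNA encodes some of the catalytic subunits of complexes I, III and IV, and the nucleus encodes all the others. Several nuclear factors are known to drive many of these genes, among them NRF1, ETS-family factors such as GABPA, YY1, SP1 and the estrogen-related receptors, which is why their motifs are shown here.

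RefSeq promoter windows (250 bases before to 50 after the start; assembly GRCm38.p6) were found for 52 of the 64 tested genes. The NRF1 motif CGCATGCG stood in the windows of 5 of these 52 genes (9.62%), against 2.07% of the 27025 genes with a window. The ETS motif CCGGAAG stood in 21.2% of the members and 9.93% of all genes, the YY1 motif AAGATGG in 15.4% and 7.28%, the SP1 motif GGGCGG in 40.4% and 38.2%, the estrogen-related receptor motif AAGGTCA in 7.69% and 5.38%, and the cyclic AMP response element TGACGTCA in 7.69% and 2.03%. Both strands were searched, exact letters were required, and motifs may overlap. The median GC content of the windows was 57.3% in members and 52.7% in all windows, and these shares are a description with no test. A match is not a binding site. The stretches before the start are shown for one gene of each of complexes I, II and III, and for the Cox8a and Cox8b pair, whose ratios were the widest of complex IV. Each reads 5′ to 3′ on the strand of its gene, with the searched motifs in capitals. Only the first letters of the Cox8a and Sdhd motifs nearest the start, and of the Uqcr11 NRF1 motif, fall inside the printed stretch, and none of the searched motifs stood in that of Cox8b.
Ndufs3 (chr2:90904722-90904971, minus strand): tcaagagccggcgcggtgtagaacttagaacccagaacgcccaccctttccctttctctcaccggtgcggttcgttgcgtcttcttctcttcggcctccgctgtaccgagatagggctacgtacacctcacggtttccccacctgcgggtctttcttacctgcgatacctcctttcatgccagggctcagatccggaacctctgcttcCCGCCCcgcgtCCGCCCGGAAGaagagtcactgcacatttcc
Sdhd (chr9:50603850-50604099, minus strand): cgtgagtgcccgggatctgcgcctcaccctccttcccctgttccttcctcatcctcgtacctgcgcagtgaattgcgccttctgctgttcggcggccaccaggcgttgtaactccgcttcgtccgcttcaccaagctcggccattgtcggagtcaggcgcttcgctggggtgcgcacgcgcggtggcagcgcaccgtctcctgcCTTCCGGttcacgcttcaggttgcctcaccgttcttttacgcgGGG
Uqcr11 (chr10:80406822-80407071, minus strand): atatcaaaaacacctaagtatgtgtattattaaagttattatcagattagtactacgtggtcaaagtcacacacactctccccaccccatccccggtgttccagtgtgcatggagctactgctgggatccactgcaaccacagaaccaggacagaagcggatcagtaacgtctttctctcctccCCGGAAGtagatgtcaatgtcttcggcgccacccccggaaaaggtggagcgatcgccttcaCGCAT
Cox8a (chr19:7217617-7217866, minus strand): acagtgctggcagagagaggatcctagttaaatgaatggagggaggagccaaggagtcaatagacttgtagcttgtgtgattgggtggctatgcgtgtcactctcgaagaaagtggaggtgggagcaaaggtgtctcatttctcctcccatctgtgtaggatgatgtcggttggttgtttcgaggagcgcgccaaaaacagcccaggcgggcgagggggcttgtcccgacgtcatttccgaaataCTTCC
Cox8b (chr7:140900447-140900696, minus strand): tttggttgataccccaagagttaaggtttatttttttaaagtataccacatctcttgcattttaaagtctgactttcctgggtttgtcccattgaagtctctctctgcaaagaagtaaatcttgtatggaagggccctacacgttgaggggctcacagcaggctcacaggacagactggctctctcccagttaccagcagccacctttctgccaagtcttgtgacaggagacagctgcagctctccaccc

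Arrays A and B of a pair agreed closely (Pearson r over all tested genes 0.973 to 0.983), and 51.9% to 58.8% of probes were well above background in a channel. The 3 pairs did not run alike over all genes: r was -0.28 between pairs 1 and 2, 0.18 between pairs 1 and 3, and -0.08 between pairs 2 and 3. Tnfrsf11a itself went against the labels. The ratio of its probe was 2.03, 1.15 and 1.76 in the 3 pairs (mean 1.65 ± 0.45 SD, limma adjusted p = 0.9995), that is, more signal where the label says RANK-/-, and both channels were well over background each time. Which part of the gene is deleted, and where the probe lies in relation to it, is not given in the sources used here, so each direction below is that of the channel labeled RANK-/-. Fibroblast markers had medians of 0.10, 0.85 and 1.82 in pairs 1 to 3 (11 of 11 tested), mammary epithelial markers 0.36, -0.51 and 0.73 (10 of 10), leukocyte markers -0.65, 0.10 and 0.07 (11 of 13), endothelial markers 0.02, -0.25 and 0.55 (9 of 9), and proliferation genes -0.80, 0.75 and -1.02 (15 of 16). Summed over their tested markers, normalized intensities ran from 149169 to 242452 for fibroblasts and from 181865 to 499395 for epithelium in the channels labeled RANK-/-, and from 55814 to 152346 and 208428 to 316842 in those labeled RANK+/+. For leukocyte markers the sums ran from 9125 to 12302 in the channels labeled RANK-/- and from 8560 to 34026 in the others. In pair 1 the lowest leukocyte markers were S100a8 (-3.99) and S100a9 (-4.12), and the highest was Itgam (0.49). The part that cell makeup had in the ratios below was not tested, and in such bulk samples fewer cells of a type and less RNA per cell cannot be told apart.

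No respiratory chain gene differed between the genotypes beyond the spread of the pairs. By limma with Benjamini-Hochberg adjustment, 0 of 64 members passed an adjusted p of 0.05, as did 0% of all genes tested. At an unadjusted p under 0.05 limma called 0 members, against 2.88% of all genes, and the rank product test called 0 members, against 0.04% of all genes (9 genes). The smallest member p was that of Ndufb3 (limma adjusted p = 0.9995). The median 95% interval of a member's mean ratio reached 0.47 log2 units to either side, compared with 0.50 over all genes. The members were bright, with a median log2 intensity of 13.93 against 8.84 for all genes. Their ratios varied between pairs with a median SD of 0.28, which was 6.62 times the median SD between arrays A and B (0.04). For all genes these values were 0.33 and 0.06.

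The ratio kept its sign over the pairs in 11 of 64 members (17.2%), against 19.6% of all genes. In 5 of 64 the ratio was above 0 in every pair, against 9.95% of all genes, and in 6 of 64 it was below 0 in every pair, against 9.65%. These counts moved with the processing. With median centring of the arrays in place of loess, 0 members were above 0 in every pair (3.81% of all genes) and 11 below (15.4%). With the scanner's processed signals 6 were above (9.84%) and 10 below (9.22%), and with the deposited series values 4 were above (9.62%) and 15 below (9.79%). Counted by dye instead of genotype, 14 members had the same sign of Cy5 over Cy3 in all pairs, 10 with Cy5 lower (13.5% of all genes) and 4 with Cy5 higher (15.3%). At 1.5-fold or more on both arrays of pair 1, 2 of 64 members were higher, Cox8a and Cox8b (9.64% of all genes), and 3 were lower, Cox5a and Ndufa10 among them (8.15%). In pair 2, 2 members were higher, Ndufs1 among them (6.78%), and 0 members were lower (6.9%). In pair 3 the higher members were Cox8b, Ndufa6, Ndufa7, Ndufa11, Ndufb9, Ndufb10 and Ndufv3 (7 of 64, or 10.9%, against 10.8%), and 0 were lower (9.07%). None was 1.5-fold the same way in all 3 pairs, where 0.418% of all genes were.

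**Figure D1:**
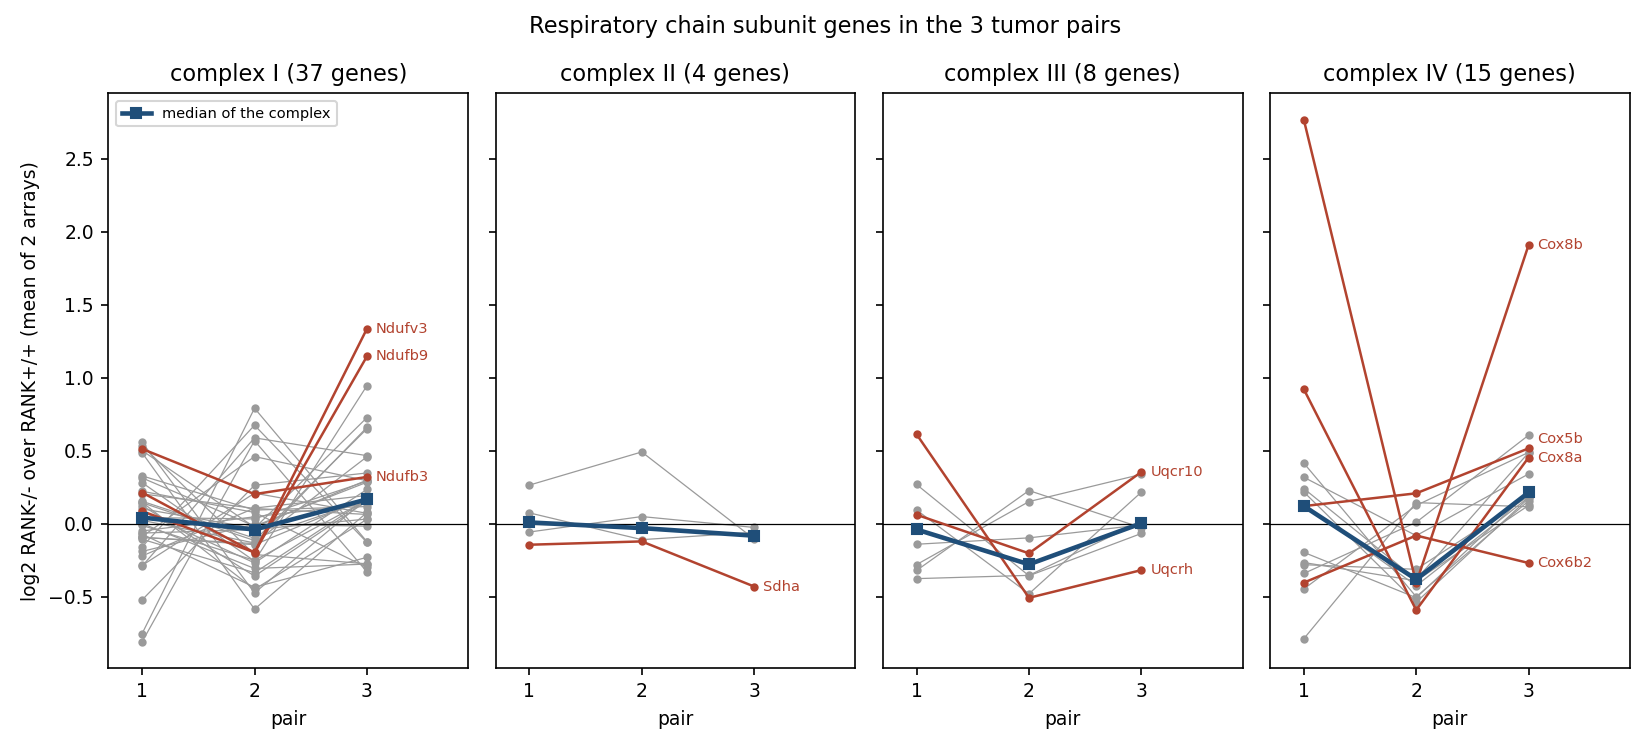
Log2 RANK-/- over RANK+/+ of each tested subunit gene (thin lines, mean of arrays A and B) in pairs 1, 2 and 3, by complex, with the median of the complex in blue and some genes named in red. Cox8b reaches 2.77 in pair 1 and 1.91 in pair 3 but -0.41 in pair 2, and most other genes lie within 1 log2 unit of 0.

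The question set by the 4 complexes was whether their genes ran together over the pairs. In pair 1 their medians were 0.04 for complex I, 0.01 for complex II, -0.04 for complex III and 0.12 for complex IV. In pair 2 they were -0.04, -0.03, -0.28 and -0.38. In pair 3 they were 0.17, -0.08, 0.00 and 0.21. The median over all genes was 0.02, -0.01 and 0.00 in the same pairs. After loess the medians of complex IV thus lay farthest apart over the pairs and those of complex II closest, but with median centring those of complex II ran from 0.26 in pair 1 to -0.86 in pair 3. After loess the median SD between pairs was 0.42 for the genes of complex IV, 0.30 for complex III, 0.27 for complex I and 0.13 for complex II. With 3 pairs, even an exact sign-flip test could not go below p = 0.25, so none was run on the medians.

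**Figure D2:**
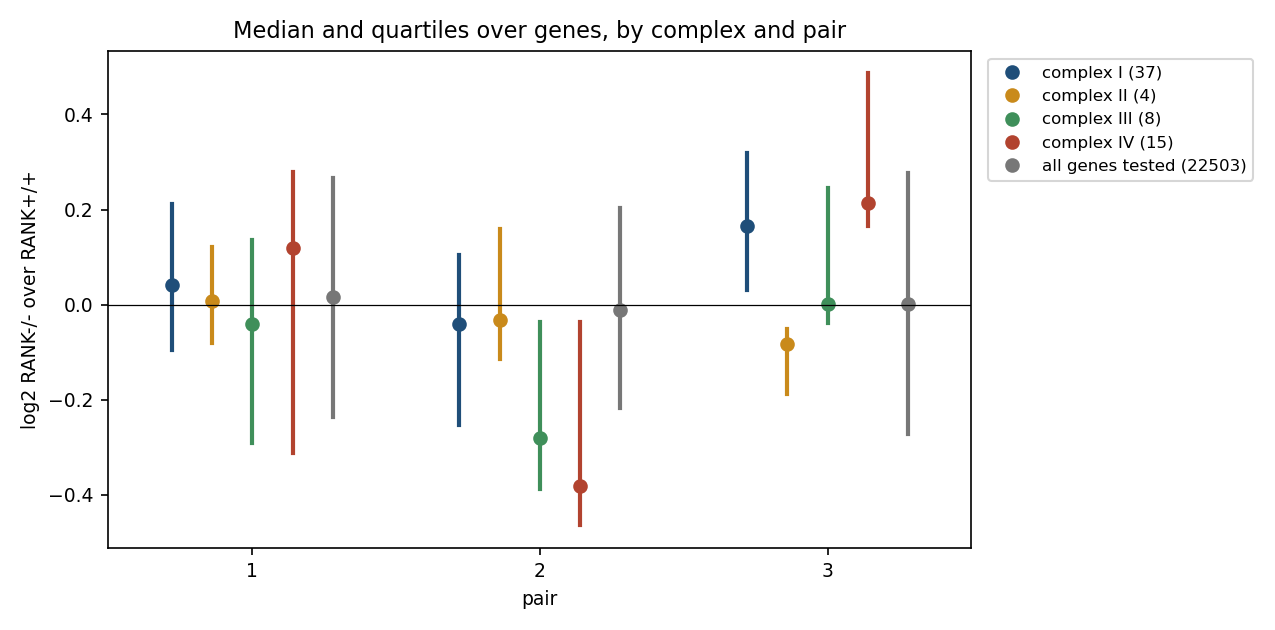
Median (points) and quartiles (bars) of log2 RANK-/- over RANK+/+ over the tested genes of each complex and over all genes tested, in pairs 1 to 3. The medians of complexes III and IV are lowest in pair 2, at -0.28 and -0.38, and complex II stays between -0.08 and 0.01.

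Set against each other, complex I lay above complex III in every pair, by 0.08, 0.24 and 0.16 (mean 0.16 ± 0.08 SD, n = 3 pairs). None of the other differences between complexes kept its sign over the pairs, and this one is a description with no test. Under median centring of the arrays the difference shrank to 0.03 in pair 3. Complex I minus complex IV was -0.08, 0.34 and -0.05, and complex II minus complex IV was -0.11, 0.35 and -0.30. Pair 2 thus ran against the other two in both. In pair 3, 14 of 15 genes of complex IV and 29 of 37 of complex I had a ratio above 0, against 50.1% of all genes. In that pair 0 of 4 genes of complex II did by their brightest probe, though a second Sdhc probe was at 0.09. In pair 2 the counts were 4 of 15, 14 of 37 and 2 of 4, against 48.3% of all genes. The medians of the mammary epithelial and of the endothelial markers had the same order of signs over the pairs as complex IV. Not every marker of either list shared that order, and their part in it was not tested.

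These levels also moved with the way the arrays were scaled. With median centring in place of the intensity loess, the median of all genes itself moved to 0.13, -0.19 and -0.39. Relative to that shift the median of complex I was 0.16, -0.32 and -0.32 and that of complex IV in pair 3 was -0.15, so the direction in pair 3 turned for both. With RANK-/- in Cy5 in pair 1 and in Cy3 in pairs 2 and 3, the medians of complexes I, II (0.13, -0.27 and -0.47), III (0.08, -0.56 and -0.35) and IV (0.23, -0.45 and -0.15) then all lay on the Cy5 side in all 3 pairs.

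Within complex I, the catalytic core subunits had medians, after loess, opposite in sign to those of the accessory subunits in pairs 1 and 2. The catalytic subunits described here are Ndufv1 (which binds NADH and flavin), Ndufv2, Ndufs1, Ndufs7 and Ndufs8 (iron-sulfur proteins), and Ndufs3 (near the quinone site). All 6 were below 0 in pair 1 and above 0 in pair 2, a pattern shown by 30.5% of all genes and by 2 of the 30 accessory subunits. Their medians were -0.22, 0.36 and 0.21 in pairs 1 to 3, and those of the accessory subunits were 0.11, -0.14 and 0.17. Core minus accessory was therefore -0.33, 0.50 and 0.05. With median centring in place of loess this difference was -0.34, 0.59 and 0.13. The signs of the core itself are those after loess, as median centring moved the complex I medians to 0.29, -0.51 and -0.71. The contrast of core and accessory subunits was picked after the values had been seen, and no test is given.

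Ndufs1 was -0.20 and -0.12 on arrays 1A and 1B, 0.67 and 0.68 on 2A and 2B, and -0.12 and -0.14 on 3A and 3B. The channel labeled RANK-/- thus held 1.6 times the RANK+/+ signal in pair 2, and less than that signal in the other pairs. Ndufs8 was -0.52, 0.26 and 0.35, and Ndufv1 was -0.29, 0.59 and 0.47. Pair 1 was the low one for both. Ndufs3 (-0.29, 0.21 and 0.07), Ndufs7 (-0.09, 0.46 and 0.29) and Ndufv2 (-0.05, 0.05 and 0.13) had the same signs in pairs 1 and 2. Means over pairs ran from -0.0028 for Ndufs3 to 0.25 for Ndufv1, and their SDs between pairs had a median of 0.38. With median centring the means ran from -0.32 for Ndufs3 to -0.10 for Ndufs7. Ndufs1 had no RefSeq promoter window, and the window of Ndufs3 is shown above.

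The dyes were turned between pair 1 and the other pairs, and read by dye the core median after loess kept its sign. As Cy5 over Cy3 their medians were -0.22, -0.36 and -0.21, and 5 of 6 had Cy5 lower in all 3 pairs (13.5% of all genes did). The accessory subunits had 0.11, 0.14 and -0.17. With a single pair in one orientation, the effect of the dye and that of pair 1 cannot be told apart. Proliferation genes were also low in pair 1 and high in pair 2, but low in pair 3 (-1.02), where the core median was 0.21. Their part in this pattern was not tested.

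**Figure D3:**
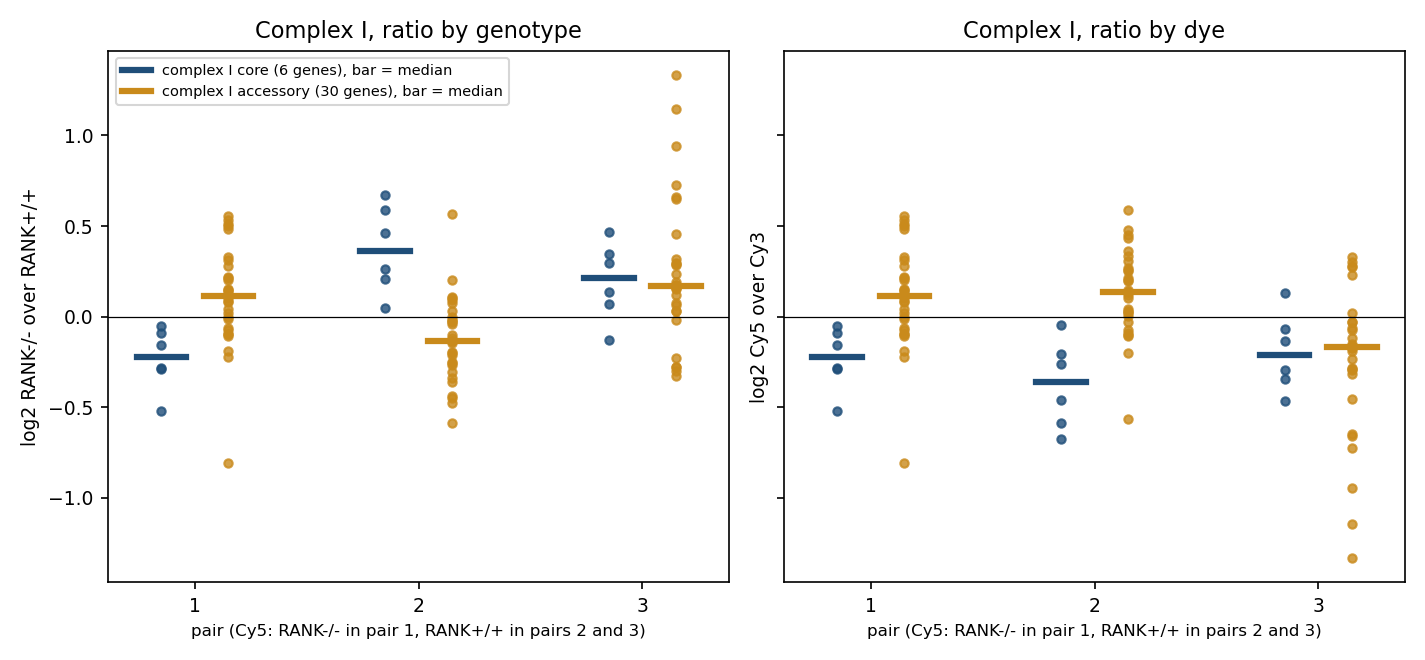
Ratios of 6 core and 30 accessory subunits of complex I (points, with a bar at the median) in pairs 1 to 3, as log2 RANK-/- over RANK+/+ on the left and as log2 Cy5 over Cy3 on the right. After loess the core medians by genotype are -0.22, 0.36 and 0.21, and by dye they are below 0 in every pair.

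Among the accessory subunits, which surround and stabilize the core, the highest means were those of Ndufv3 and Ndufb9. Ndufv3 was 0.21, -0.20 and 1.33 in pairs 1 to 3 (mean 0.45 ± 0.79 SD), and 2.52-fold higher in pair 3. Its second, dimmer probe gave -0.24, 0.63 and 0.71, so the probes lay up to 0.83 apart and took opposite signs in pairs 1 and 2. Ndufb9 was 0.08, -0.20 and 1.15. Both means rested on pair 3, and without it Ndufb9 averaged -0.06 and Ndufv3 0.01. Ndufa6 had the same form (0.28, -0.26 and 0.94). Pair 3 was the highest of the pairs in 16 of 30 accessory subunits, against 31% of all genes. The lowest means were those of Ndufb2 (-0.07, -0.44 and -0.23, mean -0.25) and Ndufa8 (0.00, -0.31 and -0.28, mean -0.20 ± 0.17 SD).

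Ndufb3, a small membrane-arm subunit, was the member with the smallest spread relative to its mean. It was 0.51, 0.20 and 0.32, or 0.34 ± 0.16 (SD, n = 3 pairs), with a 95% interval of the mean from -0.05 to 0.74. With median centring its mean was 0.01. Ndufa2 (0.33, 0.09 and 0.12), Ndufb7 (0.20, 0.10 and 0.06) and Ndufs5 (0.04, 0.03 and 0.29) were also above 0 in every pair, but with median centring their means were -0.22, -0.26 and -0.20. Ndufb6 was below 0 in every pair (-0.19, -0.0040 and -0.018), as were Ndufb2 and, by almost nothing in pair 1, Ndufa8. Ndufa4, an electron transport subunit first placed in complex I and later assigned to complex IV, was 0.56, -0.48 and 0.17, and its paralog Ndufa4l2, known as induced by hypoxia, was -0.11, -0.34 and 0.17. By their symbols both were counted with complex I, in its medians and among its accessory subunits.

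**Figure D4:**
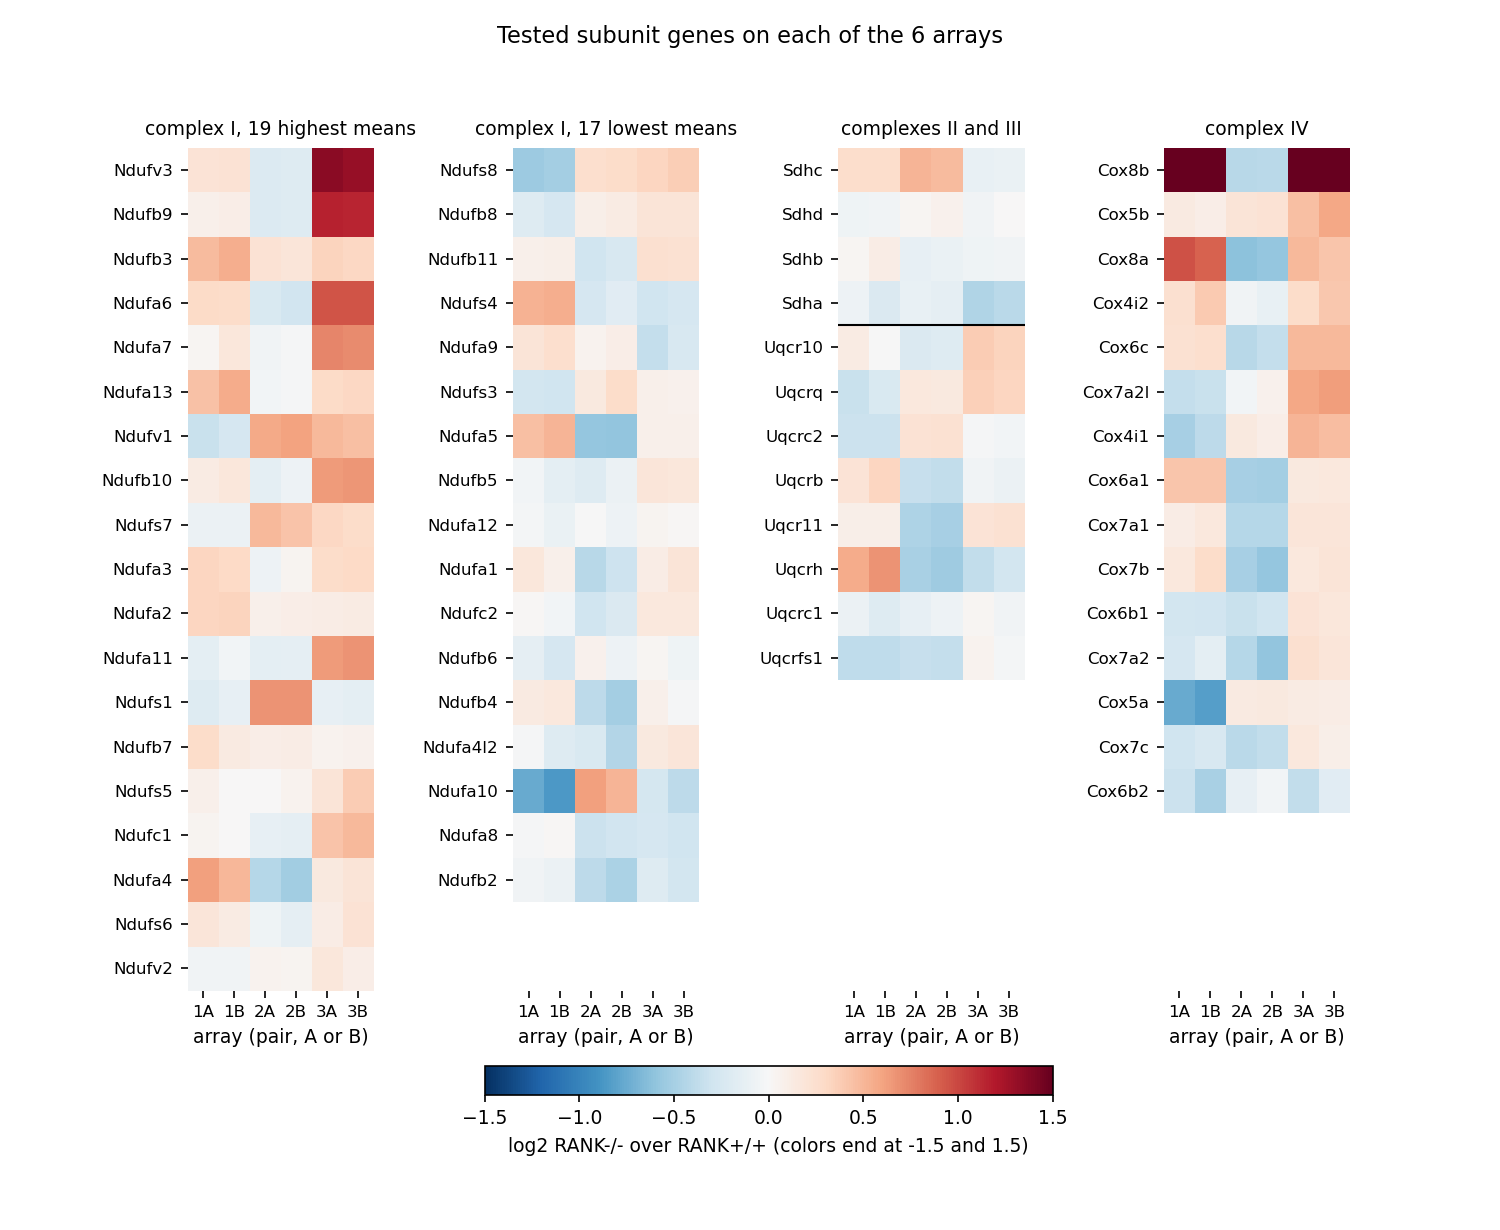
Log2 RANK-/- over RANK+/+ of the tested genes on arrays A and B of pairs 1 to 3, ordered by mean within a complex (complex II above the line and complex III below it in one panel). Colors of A and B match within a pair and differ between pairs, as for Ndufs1, and colors end at -1.5 and 1.5, which Cox8b passes in pairs 1 and 3.

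Complex II had 4 genes to describe. Sdha, the flavin subunit that oxidizes succinate, was -0.15, -0.12 and -0.43, below 0 in every pair, with a mean of -0.23 ± 0.17 (SD, n = 3 pairs; limma adjusted p = 0.9995). Sdhb, the iron-sulfur subunit, was 0.07, -0.11 and -0.06, but its second, dimmer probe gave -0.24, 0.16 and -0.15. The membrane anchors split: Sdhc was 0.26, 0.49 and -0.11, and Sdhd was -0.06, 0.05 and -0.03. A second Sdhc probe of similar brightness gave 0.29, 0.35 and 0.09, so the sign in pair 3 depended on the probe. The SD between pairs was 0.05 for Sdhd and 0.30 for Sdhc.

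In complex III the core proteins Uqcrc1 (-0.14, -0.10 and -0.01) and Uqcrc2 (-0.32, 0.23 and -0.03) and the Rieske iron-sulfur protein Uqcrfs1 (-0.38, -0.35 and 0.01) were below 0 in most pairs. Uqcrc1 was the only one of the 8 genes below 0 in all 3, and in pair 3 by less than the spread of its arrays (0.06). Uqcrfs1 had the lowest mean of the complex (-0.24 ± 0.22 SD) and Uqcr10 the highest (0.07 ± 0.28 SD). Uqcrh, the hinge protein that helps bind cytochrome c1, was 0.61, -0.51 and -0.32, the widest swing of the complex.

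Complex IV held the largest ratio of all members. Cox8b, known as the isoform of subunit VIII in heart, skeletal muscle and brown fat, was 2.77 and 2.77 on arrays 1A and 1B, -0.41 and -0.41 on 2A and 2B, and 1.95 and 1.87 on 3A and 3B. It was 6.81-fold higher in pair 1 and 3.75-fold higher in pair 3 in the channel labeled RANK-/-, and 0.753-fold in pair 2. In the channels labeled RANK-/- its log2 intensity was 10.57, 7.32 and 9.82 in pairs 1 to 3, and in those labeled RANK+/+ it was 7.80, 7.72 and 7.91. The RANK+/+ channels thus lay close together, while the RANK-/- channels were high in pairs 1 and 3 and lowest of all in pair 2. Its mean of 1.42 ± 1.64 (SD, n = 3 pairs) did not pass limma (adjusted p = 0.9995). Left without pair 2 the mean was 2.34, and without pair 1 it was 0.75. Both channels passed the background call of the scanner software each time.

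Cox8a, the isoform made in most tissues, had the same order of signs over the pairs with smaller ratios, at 0.92, -0.59 and 0.45, and its second probe gave 0.59, -0.23 and 0.82. Markers of 2 of the tissues in which Cox8b is known, skeletal muscle and brown fat, were measured beside it. Skeletal muscle markers had medians of -0.03, -0.02 and 0.04 (10 of 16 tested), and their summed normalized intensity ran from 1956 to 3906 in the channels labeled RANK-/- and from 1873 to 2625 in the others. Ckm, Myh1, Myh4 and Actn3 were well above background on no array. Mb, which encodes myoglobin, had the highest mean of the tested muscle markers (-0.53, -0.08 and 2.21), and Myh2 the lowest (-0.75, -0.61 and -0.25). Brown fat markers had medians of 0.12, 0.14 and -0.06 (7 of 9 tested), with sums from 1396 to 1704 against 1238 to 3348. Elovl3 was well above background on no array, and Ucp1, the other untested brown fat marker, did not pass the filter. Cidea had the lowest mean of the tested brown fat markers (0.57, -1.50 and -0.23), and Prdm16 the highest (0.41, 0.37 and 0.12).

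The other tissue-restricted isoforms of complex IV had ratios between -0.43 and 0.34. Cox4i2, the lung and hypoxia isoform, was 0.32, -0.08 and 0.34, beside -0.45, 0.12 and 0.49 for the common Cox4i1. Cox6b2, the testis isoform, was -0.41, -0.08 and -0.27, the lowest mean of the complex (-0.25 ± 0.16 SD), beside -0.28, -0.31 and 0.19 for Cox6b1. Cox4i2 and Cox6b2 were dim, at log2 intensities of 7.52 and 7.37, against a median of 8.84 for all genes. Their means were 0.19 and -0.25, and with a normexp offset of 0 they were 0.28 and -0.35. Cox7a1, the muscle isoform, was 0.13, -0.43 and 0.18, beside -0.20, -0.51 and 0.21 for Cox7a2 and -0.34, 0.01 and 0.61 for Cox7a2l. Muscle Cox6a2 passed the background call on 1 array in the channels labeled RANK-/- and on 3 in the others, and Cox7b2 and Cox8c on 0 in both. Their common partners Cox6a1 (0.41, -0.50 and 0.16) and Cox7b (0.22, -0.54 and 0.17) were high in pairs 1 and 3 and low in pair 2, as Cox8a was. Cox6c shared that order (0.24, -0.38 and 0.49). Across the members, 27 of 64 were above 0 in pair 1 and below 0 in pair 2, against 34.1% of all genes.

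**Figure D5:**
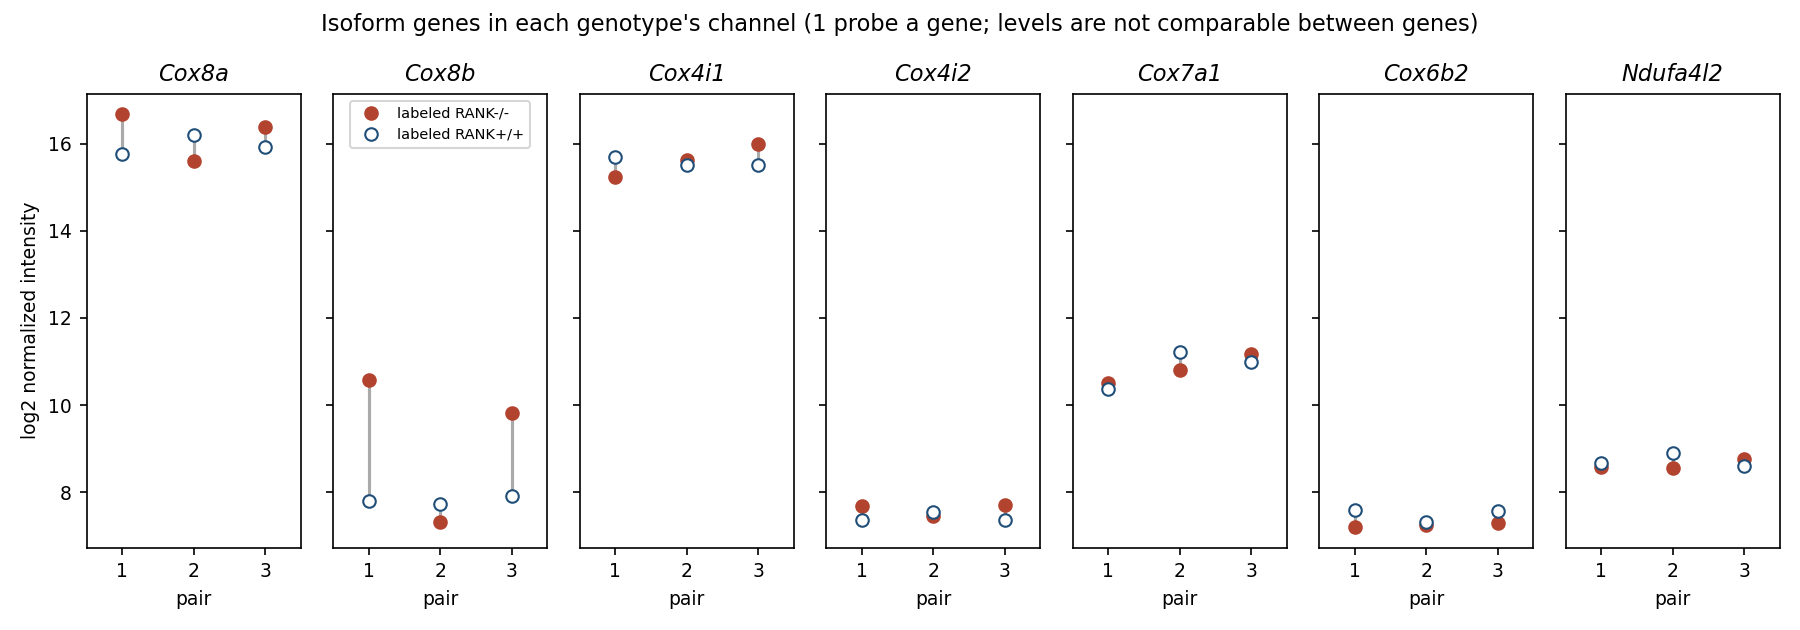
Log2 normalized intensity of isoform genes in the channel labeled RANK-/- (filled) and RANK+/+ (open) of pairs 1 to 3, each the mean of arrays A and B, with 1 probe a gene, so levels cannot be set between genes. Cox8b is at 10.57 and 9.82 in the filled points of pairs 1 and 3, and all its other points lie between 7.32 and 7.91.

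Of the common subunits of complex IV, Cox5b, which binds zinc, was above 0 in every pair (0.12, 0.21 and 0.51), with a mean of 0.28 ± 0.21 (SD, n = 3 pairs; limma adjusted p = 0.9995). With median centring its mean turned to -0.08. Its partner Cox5a was -0.79, 0.14 and 0.11. Cox7c had a mean of -0.18 ± 0.27 SD and was below 0 in pairs 1 and 2 (-0.27, -0.39 and 0.12).

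Genes around the chain were followed in 8 lists, and 0 of their 222 tested genes passed limma at an adjusted p of 0.05. At an unadjusted p under 0.05 limma called 3 of the 222, Coq10b higher and Coa4 and Myc lower (2.88% of all genes were called), and the rank product test called 0. Over all genes, 9.95% were above 0 and 9.65% below 0 in all pairs. Of 18 tested subunits of ATP synthase, 0 were above 0 in all pairs and 1 was below, with list medians of 0.00, -0.14 and 0.09. They ran from Atp5g3 (mean -0.27 ± 0.21 SD) to Atp5j (0.32 ± 0.78 SD). Of 41 assembly factors, which build the complexes, 1 was above 0 in all pairs and 6 were below, with medians of -0.17, 0.13 and -0.12. The lowest was Coa4, an assembly factor of complex IV, at -0.61, -0.37 and -0.66 (mean -0.55 ± 0.16 SD), and the highest was Uqcc3 (0.23 ± 0.38 SD). Of 77 mitochondrial ribosomal protein genes 4 were above 0 in all pairs and 12 were below (medians -0.28, 0.08 and -0.10), from Mrpl50 (-0.42 ± 0.31 SD) to Mrps6 (0.79 ± 0.68 SD).

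Other electron carriers and subunits outside the symbol pattern gave 5 of 21 above 0 in all pairs (9.95% of all genes) and 0 below (9.65%), from Ndufab1, the carrier protein in complex I (-0.46 ± 0.61 SD), to Coq10b, a coenzyme Q-binding protein (0.66 ± 0.48 SD). Cyc1, the cytochrome c1 of complex III, was -0.91, 0.28 and 0.37, and Cycs, cytochrome c, was 0.11, -0.14 and 0.40. The tricarboxylic acid cycle had medians of 0.03, -0.11 and -0.18 over 13 genes, from Idh3a (-0.48 ± 0.57 SD) to Ogdh (0.31 ± 0.47 SD). Regulators of these genes had medians of -0.03, 0.10 and -0.27 over 19 genes. Myc was the lowest (-0.31, -0.39 and -0.68) and Pprc1 the highest (mean 0.24 ± 0.24 SD). Tfam, which packs mitochondrial DNA and starts its transcription, was -0.12, 0.70 and -0.73. Hypoxia and glycolysis genes had medians of -0.67, 0.06 and 0.09 over 19 genes, from Bnip3 (-2.06, 0.64 and -1.32) to Pkm (0.21 ± 0.42 SD). Cdk1 and Pcna, the lowest and highest of the proliferation list, averaged -0.63 ± 0.70 SD and -0.13 ± 1.00 SD.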

How the data were processed

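RNA of CD45- tumor cells was measured on 6 two-color SurePrint G3 Mouse arrays, 2 for each of 3 pairs. Per the submitters' processing notes, spots were read with Agilent Feature Extraction 10.7.3.1. What the authors deposited for each array is the median spot and background intensity of both channels, not normalized, beside a processed intensity. The deposited series table holds log2 ratios normalized by the authors, and compared with the scanner values its direction was RANK-/- over RANK+/+ throughout, with column medians from -0.0080 to 0.0040. Its values and the processed signals served as alternatives. The methods describe dye swaps for each sample, but the labels give A and B of a pair the same dyes, and their ratios correlated at 0.973 or more in that orientation.

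Median intensities were background-corrected by normexp (offset 50), normalized by intensity loess within arrays and Aquantile between them (limma 3.58.1, R 4.3.3, data.table version 1.17.8), and averaged per probe and pair. Spots marked as outliers were left out. A probe was used if the scanner software called it well above background on A and B alike in 2 or more pairs, in the channel of either genotype, and the brightest probe stood for a gene. Symbols were matched by accession to a RefSeq table of GRCm38.p6. A limma fit on the 3 pair ratios covered all genes (Benjamini-Hochberg, threshold 0.05). No label says that samples came from separate donors, so p-values measure only the spread between these samples, which may be technical. The fit was tested on simulated ratios with planted changes larger than any member mean and far less spread between pairs than in the data. That test does not show how small a change the fit could find here. The 3 pairs limit the precision. Genes were named when they had the highest or lowest mean of a complex (with the next of each in complexes I and IV), passed a test or were 1.5-fold the same way in all pairs, were catalytic subunits or isoform pairs, had probes over 1 log2 unit apart, or were the extremes of another list. One member is not reported here by name; it counts in the totals and medians of all members and of complex I, not in those of the core subunits. Any other gene was named with its values in view. The members and lists were chosen with earlier results of these data known. Alternatives changed background, scaling, filters, probes, arrays, blocks, dye, replicates and fold.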

Additional observations from a re-analysis of the deposited data

How the results depend on the processing

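The count of 0 members past the limma threshold held under each alternative run, among them the 6 arrays with the pair as a random block (13 of all genes called), the dye term, robust eBayes and the rank product. Without the replicate block, with the channels of the pairs set as 3 against 3, limma also called 0 members. The deviations of same-numbered channels correlated at -0.03, -0.22 and -0.04, which gave no sign of variation shared within a pair. Both channels of a pair shared arrays, and with 3 pairs this check cannot exclude shared variation. With median centring in place of loess 0 members were above 0 and 11 below 0 in all pairs, and the medians were 0.29, -0.51 and -0.71 for complex I, 0.26, -0.46 and -0.86 for complex II, 0.21, -0.74 and -0.75 for complex III, and -0.54 for complex IV in pair 3. Relative to the median of all genes, an alternative added after the data were seen, these were 0.16, -0.32 and -0.32, then 0.13, -0.27 and -0.47, then -0.56 and -0.35 in pairs 2 and 3, and -0.15; complex III minus IV was -0.10 in pair 2 and complex I minus III 0.033 in pair 3. Under median centring the mean turned in sign for Cox4i1 (-0.39), Cox5b (-0.077), Cox6a1 (-0.48), Cox7a2l (-0.34), Cox8a (-0.21), Ndufa2 (-0.22), Ndufa4 (-0.26), Ndufb7 (-0.26), Ndufb9 (-0.059), Ndufs1 (-0.16), Ndufs5 (-0.20), Ndufs7 (-0.10), Ndufs8 (-0.21), Ndufv1 (-0.11), Ndufv2 (-0.29), Sdhc (-0.041) and Uqcr10 (-0.31). With the processed signals 10 members were below 0 in all pairs, the median of complex II in pair 3 was -0.15, complex III minus IV in pair 3 was -0.46, and Ndufs8 (-0.059) turned. With the authors' series values 19 members kept one sign (15 below 0), the medians of complex II were -0.076, -0.080 and -0.26, those of complexes I and III in pair 3 were -0.050 and -0.16, complexes I and III minus IV in pair 3 were -0.34 and -0.45, and Ndufa4 (-0.032), Ndufs5 (-0.00073), Ndufv2 (-0.077) and Uqcr10 (-0.035) turned. The dye term turned Cox4i1 (-0.071), Cox7a1 (0.0052), Cox7a2l (-0.018), Cox7b (0.017) and Ndufs8 (-0.11), among others. The lists in this section hold only genes named above and are not complete. Of the 64 members, 29 turned under median centring, 2 with the processed signals, 10 with the series values and 12 with the dye term. Leaving out pair 1, 2 or 3 turned 12, 16 and 16 of them. Smaller changes turned Ndufs3 without background subtraction (0.0021) and with spatial loess (7.2e-05), and with array B alone Ndufs3 (0.012) and Sdhd (0.0048). Without the filter complex III minus IV in pair 2 was -0.081; with probes averaged the median of complex II was -0.071 and 0.037 in pairs 1 and 2; with means over members it was 0.076 and -0.16 in pairs 2 and 3. At 2-fold 1 member was higher and 0 lower in pair 1, 0 higher in pair 2 and 3 higher in pair 3. Leaving out 1 pair left 22 to 39 members with one sign over the other pairs (7 to 28 above 0, 10 to 15 below 0), where fewer pairs by construction give more. The means that turned then ranged as follows: Cox4i1 -0.16 to 0.31, Cox6a1 -0.17 to 0.28, Cox7a1 -0.15 to 0.16, Cox7a2 -0.35 to 0.0077, Cox7a2l -0.17 to 0.31, Cox7b -0.18 to 0.20, Cox8a -0.070 to 0.69, Ndufa4 -0.15 to 0.36, Ndufa4l2 -0.22 to 0.029, Ndufb9 -0.056 to 0.62, Ndufs1 -0.14 to 0.27, Ndufs3 -0.11 to 0.14, Ndufs8 -0.13 to 0.30, Ndufv2 -0.0023 to 0.090, Sdhb -0.085 to 0.0064, Sdhd -0.042 to 0.011, Uqcr10 -0.072 to 0.21, Uqcrc2 -0.17 to 0.099. The mean of complex I minus III stayed between 0.12 and 0.20. The causes of these shifts were not tested, and the number of pairs limits every comparison.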
